A study of Mus musculus with 12 samples.

Results

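The genes described here are 10 members of the AP-1 and immediate early group, namely Fos, Fosb, Fosl1, Fosl2, Jun, Junb, Jund, Egr1, Ier2 and Ier3. They were chosen by name and are 10 of the 54232 genes in a table of liver RNA-seq read counts. Whole liver RNA was sequenced from 5 pair-fed (PF) and 7 alcohol-fed (AF) mice of a model of alcohol-associated steatohepatitis (ASH), with 1 library per mouse. All mice were male, of the strain C57BL6/J and labelled 8-week for age. Both groups received a high-fat liquid diet by the intragastric route for 8 weeks. The methods describe a solid diet rich in cholesterol and saturated fat beside it, after a start on that diet or on regular chow. They do not state which solid diet PF mice ate, so whether the groups differed in solid diet is not known here. In AF mice the liquid diet contained ethanol, raised to 27 g/kg/day, with a weekly binge of 5 g/kg. Livers were taken around midday, one day after the last binge, so the values are a single late time point and give no time course after a binge.

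AP-1 is a transcription factor made of pairs of proteins. A Jun protein pairs with a Fos protein or with another Jun protein through a leucine zipper, and the pair binds a short DNA site in the control regions of its target genes. Fos, Jun, Egr1 and the Ier genes are called immediate early genes because they are transcribed within minutes of a growth factor, cytokine or stress signal without new protein synthesis, and most of their mRNAs decay fast. In liver they are known for their rise after partial hepatectomy and tissue injury.

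Counts on genes ranged from 24129900 to 28594027 per PF liver and from 25099033 to 30578639 per AF liver. Levels are given as CPM (counts scaled to a common library size), scaled between livers with edgeR's TMM factors, and fold changes are AF over PF on the log2 scale with their standard error (SE). Of the 14168 genes that passed the filter on low counts, 22.0% were higher and 17.8% were lower in AF livers at an adjusted p under 0.05 (edgeR quasi-likelihood test, Benjamini-Hochberg). Without TMM, on library totals alone, the share of higher genes among those called moved from 55.3% to 87.3% and the median log2 fold change of all genes from 0.04 to 0.40, so the scaling matters for genes with small differences. Hepatocyte marker genes summed to between 94672 and 139542 CPM in PF livers and to between 55863 and 107626 CPM in AF livers. Most of this sum was Alb, with a mean of 89801 CPM in PF and 59186 in AF livers, which was not called (edgeR adjusted p = 0.164). In such bulk RNA, fewer cells of a type and less RNA per cell cannot be told apart.

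Of the 10 members, 9 passed the filter. In AF livers 1 of them, Ier3, was higher and 1, Fos, was lower, beside the 22.0% and 17.8% of all tested genes called in these directions. Ier3 was also higher in every AF liver than in any PF liver, which held for 8.20% of all tested genes, and no member was lower in every AF liver, which held for 9.49%. The other 7 tested members did not pass the threshold. Their log2 fold changes ran from -1.06 for Fosb to 0.64 for Egr1. Fosl1 did not pass the filter, and its reads were found in AF livers but in no PF liver. The median log2 fold change of the 9 tested members was 0.27, beside 0.04 for all tested genes, and the median of its absolute size was 0.44, beside 0.35.

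**Figure D1:**
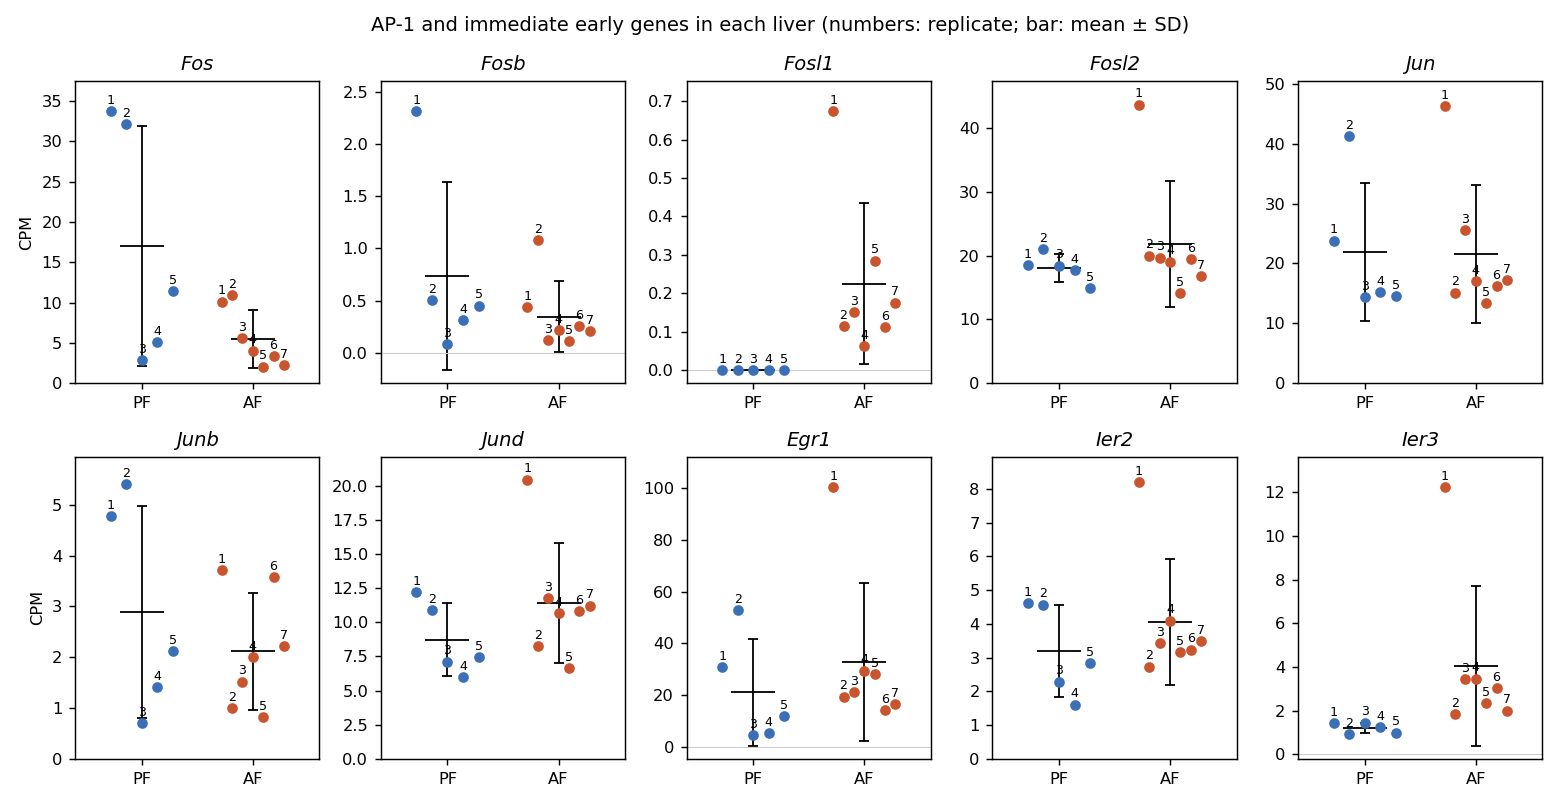
CPM of the 10 members in each liver, with PF livers in blue, AF livers in red, replicate numbers at the points, and bars for the mean and SD (5 PF and 7 AF livers). Every AF liver lies above every PF liver for Ier3 and Fosl1, AF replicate 1 is highest of its group for 8 members, and PF replicates 1 and 2 are highest of theirs for Fos.

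The sequence before the start site of the 2 called genes and of Jun is shown because immediate early genes are switched on through short sites close to their start. The sequences are from RefSeq (GRCm38.p6), which had an entry used here for 7 of the 10 members. They run 5′ to 3′ on the gene's strand up to the start in GENCODE, which for Fos and Jun is also the RefSeq start and for Ier3 lies 29 bases before it, and capitals mark the motifs found in them. The windows are chr12:85473640-85473889 for Fos (plus strand), chr4:95052223-95052472 for Jun (minus strand) and chr17:35821463-35821683 for Ier3 (plus strand).
Fos: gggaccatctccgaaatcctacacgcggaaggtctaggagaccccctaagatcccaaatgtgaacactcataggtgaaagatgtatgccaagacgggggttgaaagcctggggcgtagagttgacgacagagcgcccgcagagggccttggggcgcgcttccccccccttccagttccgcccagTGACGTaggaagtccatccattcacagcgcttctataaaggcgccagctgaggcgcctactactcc
Jun: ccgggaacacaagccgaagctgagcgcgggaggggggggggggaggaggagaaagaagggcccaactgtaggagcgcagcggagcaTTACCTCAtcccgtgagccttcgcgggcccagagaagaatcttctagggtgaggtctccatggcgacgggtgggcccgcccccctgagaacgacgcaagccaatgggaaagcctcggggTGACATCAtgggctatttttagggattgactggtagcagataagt
Ier3: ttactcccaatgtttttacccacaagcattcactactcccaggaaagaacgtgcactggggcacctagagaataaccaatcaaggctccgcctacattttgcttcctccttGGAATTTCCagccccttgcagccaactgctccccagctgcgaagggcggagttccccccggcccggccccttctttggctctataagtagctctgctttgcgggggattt

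The capitals in Fos, at positions -66 to -61 from the RefSeq start, are the core TGACGT of a cyclic AMP response element, the type of site bound by CREB and ATF proteins. On either strand these letters occur in 6.47% of 32851 mouse promoter windows of 250 bases. The capitals in Jun are a pair of AP-1-like sites. TGACATCA, at -45 to -38, occurs in 2.93% of the windows, and TTACCTCA, at -164 to -157, in 0.728%. The capitals in Ier3, at -139 to -131 from the RefSeq start, match GGAANTTCC, a form of the site bound by NF-kB, which occurs in 0.813% of the windows. The AP-1 site TGANTCA occurs in 6.75% of the windows and in none of the 7 member windows, of which those of Jund and Fosl2 lie away from the first base of the gene in GENCODE (RefSeq start at -1210 and 671 bases). These motifs were picked after the sequences had been read, and a match describes letters only.

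The Fos proteins were considered first. They cannot pair with themselves and need a Jun partner. Fos lies on chromosome 12 (mm10, 85473890 to 85477273, plus strand) and encodes c-Fos, the best known immediate early protein. Its level was 33.8, 32.1, 2.83, 5.07 and 11.4 CPM in PF replicates 1 to 5, and in AF livers it ranged from 2.05 to 10.9 CPM with a median of 4.04. PF replicates 1, 2 and 5 lay above every AF liver, whereas PF replicates 3 and 4 lay within the AF range. The mean was 17.04 ± 14.9 CPM (SD, n = 5) in PF and 5.47 ± 3.64 (n = 7) in AF livers. The log2 fold change was -1.63 ± 0.598 (SE), with an edgeR adjusted p of 0.0440. Over all splits of the livers into 5 and 7, the exact permutation p for its mean log2 CPM was 0.106 (two-sided). The call was lost without PF replicate 1 (log2 fold change -1.23, edgeR adjusted p = 0.133) or PF replicate 2 (-1.28, edgeR adjusted p = 0.130), and without both the value was -0.24. Of 25 alternative settings the call was lost in 15, among them library totals (-1.19, edgeR adjusted p = 0.110).

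PF replicate 1 also had the highest neutrophil markers of its group, at 783 CPM for the sum of 7 genes beside a PF median of 144. PF replicate 2, with a like level of Fos, had the lowest sum of all PF livers, at 53.7 CPM. AF livers ranged from 45.7 to 178 CPM, and no neutrophil marker was at 0 in all livers of a group. The part of neutrophils in the level of Fos was not tested.

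Fosb (chromosome 7, 19302696 to 19310051, minus strand) encodes a close relative of c-Fos and was scarce. It was at 2.31, 0.503, 0.0833, 0.315 and 0.452 CPM in PF replicates 1 to 5 and between 0.114 and 1.08 CPM in AF livers, with a median of 0.219. All AF livers lay within the PF range, and PF replicate 1 stood above the rest. The fold change of Fosb was -1.06 ± 0.708 (log2; edgeR adjusted p = 0.244), and without PF replicate 1 it was 0.03.

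Fosl1 (chromosome 19, 5447547 to 5455946, plus strand) encodes FRA1, a Fos protein without the transactivation domain of c-Fos that is common in migrating and transformed cells. No read was counted in any of the 5 PF livers. The 7 AF livers had 26, 3, 5, 2, 10, 3 and 5 reads in replicate order, which is 0.0626 to 0.674 CPM with a median of 0.152. Every AF liver was above every PF liver, at counts as low as 2 reads. The exact permutation p of 0.00126 (two-sided), the smallest that these group sizes allow, reflects this same separation and is not further evidence. The share of 8.20% separated in this way covers only genes that passed the filter. For genes with as few reads as Fosl1 no such share was counted. With 3 counts taken as the limit over the PF group (0.0264 CPM), the mean of 0.225 CPM in AF was at least 8.54-fold higher, and without AF replicate 1 at least 5.70-fold higher. The gene shares 1163 exon bases with Ccdc85b on the opposite strand, which had 3 reads in PF and 12 in AF livers, so the counts of Fosl1 would be uncertain if strand was not used in the counting.

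Fosl2 (chromosome 5, 32135801 to 32157842, plus strand) encodes FRA2, which also acts in fibrosis and bone. It was the steadiest member in PF livers, at 18.5, 21.0, 18.5, 17.7 and 14.9 CPM. AF livers ranged from 14.1 to 43.7 CPM with a median of 19.5. Apart from AF replicate 1, at 43.7 CPM, the groups covered much the same range. Fosl2 had a log2 fold change of 0.27 ± 0.235 (edgeR adjusted p = 0.372), and 0.01 without AF replicate 1.

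Levels of different genes were compared after division by the exon length of each gene. The Fos family summed to 9.23 ± 6.55 CPM per kb (SD, n = 5) in PF and 4.75 ± 2.45 (n = 7) in AF livers, which overlapped (exact permutation p = 0.168, two-sided). Within that sum Fos itself had a mean share of 67.8% in PF livers (38.6 to 86.3%) and of 46.0% in AF livers (34.3 to 66.8%). The mean share of Fosl2 was 31.1% in PF and 50.5% in AF livers, and that of Fosl1 was 0% and 2.45%. Ranges of Fos and Fosl2 overlapped between the groups. The shares follow from the levels given above and are not further evidence.

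**Figure D2:**
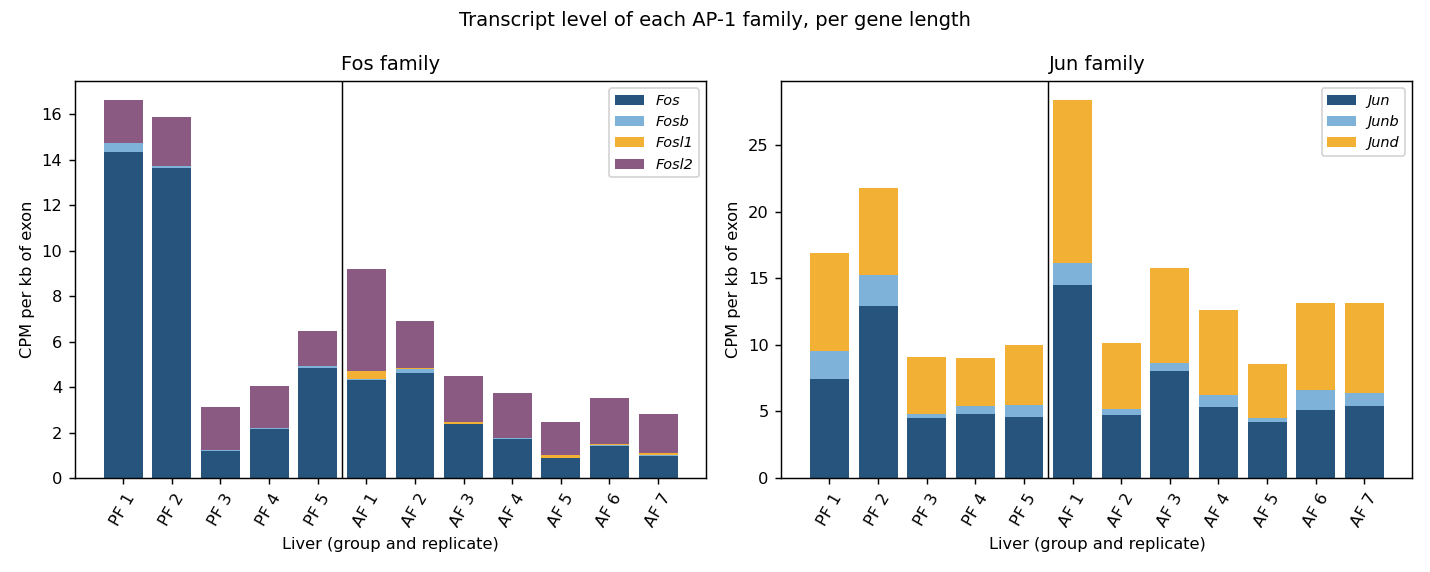
Summed level of the Fos family (left) and the Jun family (right) in each liver, in CPM per kb of exon, with 1 colour per gene. The tall Fos bars of PF replicates 1 and 2 set the PF mean of the Fos family at 9.23, and AF replicate 1 has the tallest bar of the Jun family.

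The Jun proteins can pair with each other and with Fos proteins, so they are present in every AP-1 pair described here. Jun (chromosome 4, 95049034 to 95052222, minus strand) encodes c-Jun, which is phosphorylated by JNK. It was at 23.8, 41.2, 14.4, 15.3 and 14.6 CPM in PF replicates 1 to 5 and between 13.3 and 46.2 CPM in AF livers, with a median of 17.02. The groups covered nearly the same range, with PF replicate 2 and AF replicate 1 on top. Jun had a log2 fold change of -0.02 ± 0.347 (edgeR adjusted p = 0.972), and its sign depended on the scaling, at 0.43 on library totals. Jun shares 232 exon bases with its antisense gene Junos, which had 226 reads over the 12 livers.

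Junb (chromosome 8, 84974484 to 84978718, minus strand) encodes a Jun protein that often restrains c-Jun. PF livers had 4.77, 5.40, 0.708, 1.42 and 2.13 CPM, and AF livers 0.827 to 3.71 CPM with a median of 2.00. The 2 highest PF livers, replicates 1 and 2, lay above all AF livers, and the lowest PF liver lay below them all. For Junb the log2 value was -0.44 ± 0.494 (edgeR adjusted p = 0.502). It was -0.08 without PF replicate 2, -0.18 without PF replicate 1 and 0.58 without both. After correction for length and GC content it was -0.76, and Junb was called in none of these fits. Junb shares 173 exon bases with Prdx2 on the opposite strand, which had 30049 reads over the 12 livers, so its counts would be uncertain if strand was not used in the counting.

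Jund (chromosome 8, 70698949 to 70700616, plus strand) encodes the Jun protein that resting cells hold most steadily. It was at 12.2, 10.9, 7.13, 6.02 and 7.47 CPM in PF livers and at 6.67 to 20.5 CPM in AF livers, with a median of 10.8. The ranges overlapped, and AF replicate 1 was alone above the PF range. Jund had a log2 fold change of 0.39 ± 0.258 (edgeR adjusted p = 0.245). On library totals it was 0.80 (edgeR adjusted p = 0.0418), beside a median of 0.40 over all genes, and after correction for length and GC content it was 0.03 (edgeR adjusted p = 0.905). Jund shares 877 exon bases with the antisense gene Gm11175, which had 5 reads over the 12 livers, so its counts are uncertain in the same way as those of Junb. The Jun family summed to 13.3 ± 5.75 CPM per kb (SD, n = 5) in PF and 14.5 ± 6.54 (n = 7) in AF livers, which did not differ beyond their spread (exact permutation p = 0.718, two-sided).

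Egr1 (chromosome 18, 34859823 to 34864984, plus strand) encodes a zinc finger transcription factor that shares upstream signals with Fos, through serum response factor and its ternary complex partners. PF replicates 1 to 5 had 30.8, 53.0, 4.38, 5.35 and 11.8 CPM. AF livers ranged from 14.3 to 100.7 CPM with a median of 21.1. AF livers lay above PF replicates 3, 4 and 5 and, apart from AF replicate 1, below PF replicate 2. The log2 fold change of 0.64 ± 0.649 did not pass the test (edgeR adjusted p = 0.447). It was 0.04 without AF replicate 1, 2.19 without PF replicates 1 and 2 (edgeR adjusted p = 0.0343) and 1.59 without all 3 (edgeR adjusted p = 0.0110), and these livers were picked after their values had been seen.

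Reads of Egr1 were also set against reads of Fos in the same liver, a ratio that needs no scaling between libraries. It was chosen after the values of both genes had been seen, so it is a description with no test. PF replicates 1 to 5 had 0.913, 1.65, 1.54, 1.05 and 1.03 Egr1 reads per Fos read. AF replicates 1 to 7 had 9.96, 1.78, 3.77, 7.30, 13.7, 4.27 and 7.15. All AF livers were above all PF livers, and the medians were 1.05 and 7.15. The PF ratios stayed close together although Fos itself varied by 11.9-fold among PF livers. Of all other genes tested, 1.71% had ratios to Fos that separated the groups in this direction. Of the 8 other tested members Egr1 was the only such gene. The median ratio to Fos was higher in AF than in PF livers for all 8, from 1.49-fold for Fosb to 9.85-fold for Ier3 (0.5 added to counts). For Egr1 it was 6.74-fold, so a higher ratio to Fos was not particular to Egr1. The separation itself was narrow, with 1.78 in AF replicate 2 beside 1.65 in PF replicate 2.

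**Figure D3:**
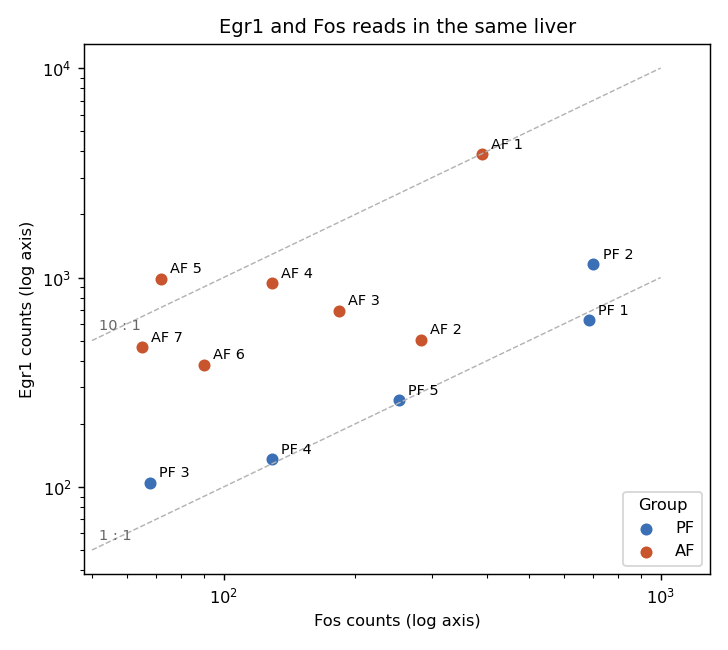
Egr1 reads against Fos reads in each liver on log axes, with dashed lines at 1 and 10 Egr1 reads per Fos read. PF livers lie near the lower line, between 0.913 and 1.65, and AF livers lie above them, between 1.78 and 13.7.

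The Ier genes encode small proteins that are not AP-1 subunits. Ier2 (chromosome 8, 84661331 to 84662852, minus strand) was at 4.63, 4.58, 2.29, 1.61 and 2.85 CPM in PF livers and at 2.73 to 8.19 CPM in AF livers, with a median of 3.43. AF replicate 1 was again alone above the PF range. The log2 fold change was 0.35 ± 0.322 (edgeR adjusted p = 0.401). It was 0.08 without AF replicate 1 and 0.15 after correction for length and GC content.

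Ier3 (chromosome 17, 35821684 to 35822923, plus strand), also known as IEX-1, encodes a protein that modulates cell survival and is a target of NF-kB. It was at 1.43, 0.915, 1.46, 1.26 and 0.995 CPM in PF replicates 1 to 5. AF livers had between 1.85 and 12.3 CPM with a median of 3.05. The lowest AF liver thus lay above the highest PF liver. The log2 fold change was 1.75 ± 0.472 (edgeR adjusted p = 0.0109; exact two-sided permutation p = 0.00379). Without AF replicate 1 it was 1.16 (edgeR adjusted p = 0.00288), and without PF replicates 1 and 2 together it was 1.71 (edgeR adjusted p = 0.0607). PF replicate 2, which was among the highest PF livers for Fos and Egr1, had the lowest level of Ier3, with 20 reads beside 22 in PF replicate 5. PF replicate 1, also among the highest for Fos and Egr1, had 1.43 CPM, near the PF maximum of 1.46.

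Marker genes of several non-parenchymal cell types were also higher in AF livers. Of recruited macrophage markers 4 of 6 rose, of stellate cell markers 6 of 7, of Kupffer cell markers 4 of 5 and of bile duct markers 4 of 4, and none of these fell, beside the 22.0% and 17.8% of all tested genes called higher and lower. Without PF replicates 1 and 2 the counts were 4, 6, 1 and 0, and for Kupffer cells 3 markers rose when any single liver other than AF replicate 1 was left out. Their summed levels ranged from 221 to 544 CPM in PF and 511 to 2105 in AF livers for recruited macrophages, from 77.2 to 133 and 129 to 502 for stellate cells, from 573 to 778 and 776 to 2376 for Kupffer cells, and from 3.16 to 4.96 and 4.95 to 41.5 for bile ducts. AF replicate 1, which had the highest Ier3, was highest for the stellate cell and bile duct sums and lowest of the AF livers for the Kupffer cell sum. The part of these cells in the levels of Ier3 and Fosl1 was not tested. Of the other markers, 3 of 8 hepatocyte (with 1 other, Ahsg, called higher on library totals), 1 of 8 lymphocyte and 1 of 3 red blood cell markers fell (Alas2, while on library totals the other 2, Hba-a1 and Hbb-bs, were called higher), 1 of 5 endothelial markers rose (4 on library totals, 2 without PF replicate 4), and 0 of 7 neutrophil markers passed the edgeR test (2 at an unadjusted p under 0.05, 2 by DESeq2, 0 by limma-voom and 1 with its quality weights). On library totals, and without AF replicate 5, 1 neutrophil marker was called higher. Without AF replicate 5, 1 red blood cell marker was also called higher. Without PF replicates 1 and 2 together, 2 hepatocyte, 2 lymphocyte and 0 red blood cell markers fell. With single livers left out, those that fell were 5 hepatocyte markers without AF replicate 6 and 4 without AF replicate 7. They were 2 lymphocyte markers without PF replicate 1, AF replicate 2 or AF replicate 5, and 2 neutrophil markers without PF replicate 2 or 4.

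**Figure D4:**
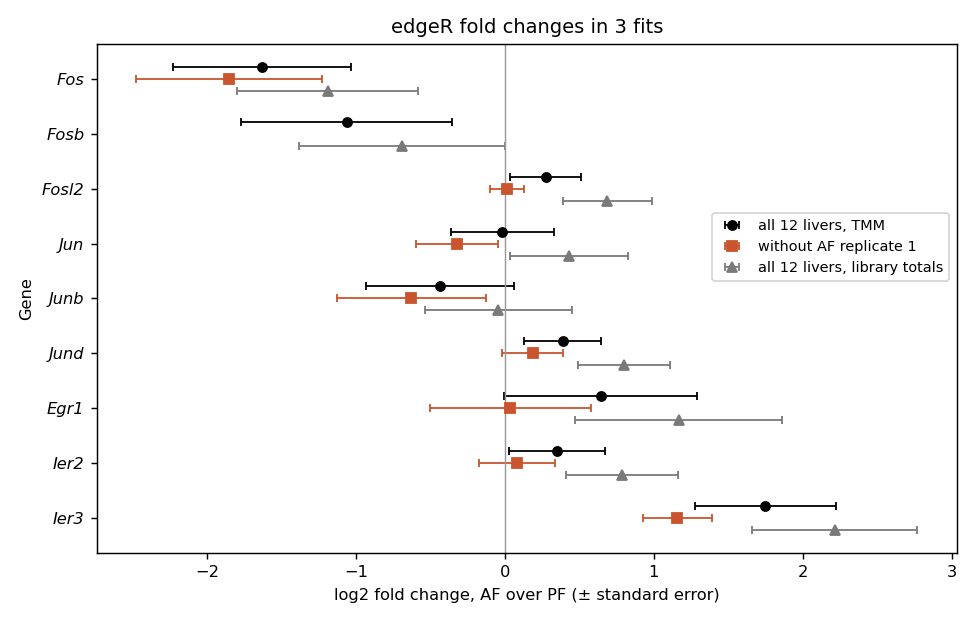
Log2 fold change of AF over PF with its standard error for the 9 tested members, from all 12 livers (black circles), without AF replicate 1 (red squares, no value for Fosb, which then failed the filter) and on library totals (grey triangles). Ier3 lies right of 0 in all 3 fits, Fos left of 0, and the values of Fosl2, Egr1 and Ier2 move to between 0.01 and 0.08 without AF replicate 1.

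The members also varied within the groups. AF replicate 1 was the highest AF liver for 8 of the 10 members and among the 2 highest for all 10. The exceptions were Fos and Fosb, which were highest in AF replicate 2. AF replicate 5 was lowest for 6 members. In the PF group, replicate 1 was highest for Fos, Fosb, Jund and Ier2 and replicate 2 for Fosl2, Jun, Junb and Egr1, while replicate 3 was lowest for 5 members. AF replicate 1 also had the highest TMM factor, at 1.36 beside 0.832 to 1.23 in the other livers.

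**Figure D5:**
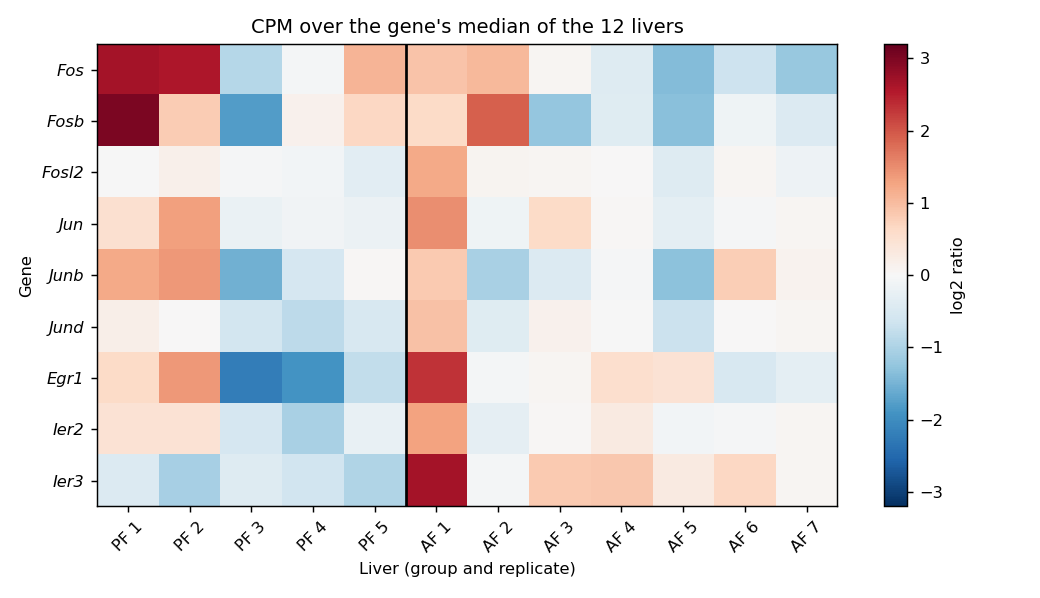
CPM of each tested member in each liver over the gene's median of the 12 livers, as log2 ratio, with the line between PF and AF livers. PF replicates 1 and 2 and AF replicate 1 are high for most members, and Ier3 is above its median only in AF livers.

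This spread was larger than that of most genes for the inducible members. The SD of log2 CPM was 1.57 in PF and 0.94 in AF livers for Fos and 1.55 and 0.94 for Egr1, beside a median of 0.21 and 0.30 over all tested genes. Ier3 varied less in PF livers (0.28) than in AF livers (0.90), above the median of all tested genes in both groups. Fosl2 had an SD of 0.18 and 0.51. Jund was at 0.43 and 0.50.

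By median CPM per kb, the order in PF livers was Fos (4.85), Jun (4.78), Jund (4.48), Egr1 (2.62), Fosl2 (1.91), Ier2 (1.87), Ier3 (1.11), Junb (0.924) and Fosb (0.0725), with Fosl1 at 0. In AF livers it was Jund (6.47), Jun (5.34), Egr1 (4.70), Ier3 (2.70), Ier2 (2.26), Fosl2 (2.01), Fos (1.72), Junb (0.870), Fosl1 (0.0747) and Fosb (0.0351). The ranges of neighbours in these orders overlapped, except for Fosb and Fosl1 in PF and for Junb and Fosl1 in AF livers. Fos was thus first of 10 by median in PF livers, and 6 members had a higher median in AF livers.

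Other proteins with a leucine zipper can pair with or replace Fos and Jun. Of 12 such partners, all of which were tested, 3 rose and 1 fell, beside the 22.0% and 17.8% of all tested genes. On library totals 7 rose and 0 fell, and without PF replicates 1 and 2 the counts were 1 and 1. Atf3, a stress-induced repressor and activator, went from 3.11 ± 0.519 CPM (SD, n = 5) to 55.0 ± 78.3 (n = 7), with 231 CPM in AF replicate 1 and 13.7 CPM in the lowest AF liver. This is a log2 fold change of 4.15 (edgeR adjusted p = 0.00155), and 3.05 without AF replicate 1. Jdp2, which binds Jun and represses AP-1, rose by 1.00 (edgeR adjusted p = 0.0234), and Atf4 rose by 0.46 (edgeR adjusted p = 0.0148). Atf2 changed by -0.23 (edgeR adjusted p = 0.0390), was no longer called without AF replicate 1 (edgeR adjusted p = 0.0601) and was at 0.13 on library totals. Leaving out single livers gave 2 to 5 partners higher and 0 to 1 lower.

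Of 38 other immediate early genes, 34 were tested, of which 8 rose and 4 fell, beside 22.0% and 17.8% of all tested genes. Those with the largest rise were Egr2, a relative of Egr1 (log2 fold change 2.73, edgeR adjusted p = 0.00333), the growth regulator Myc (2.16, edgeR adjusted p = 0.00169) and the kinase Sgk1 (2.03, edgeR adjusted p = 0.000928). Those with the largest fall were Zfp36, which encodes an mRNA decay factor (-1.77, edgeR adjusted p = 0.00153), Dusp1, a phosphatase that switches off JNK and p38 (-1.63, edgeR adjusted p = 0.00427), and Errfi1, an inhibitor of the EGF receptor (-1.14, edgeR adjusted p = 0.00953). Dusp1 was lower in every AF liver than in any PF liver, which Fos was not. The median log2 fold change of the 34 genes was -0.02, beside 0.04 for all tested genes. Leaving out single livers gave 7 to 8 genes higher and 3 to 7 lower, with 7 lower without AF replicate 6, and without PF replicates 1 and 2 together 7 were higher and 2 lower.

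Of 11 factors that act on immediate early promoters, 3 rose and 1 fell, by small amounts, beside 22.0% and 17.8% of all tested genes. Elk3 rose by 0.67 (edgeR adjusted p = 0.0100), Mef2d by 0.35 (edgeR adjusted p = 0.0335) and Mrtfb, a cofactor of serum response factor, by 0.32 (edgeR adjusted p = 0.0255). Elk4 changed by -0.22 (edgeR adjusted p = 0.0277), and by 0.15 on library totals, where 6 factors rose and none fell. Without PF replicates 1 and 2, none of the 11 was called by edgeR, and leaving out single livers gave 1 to 4 higher and 0 to 3 lower.

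Among 14 genes with AP-1 sites described in textbooks, 11 were tested, of which 8 rose and 0 fell, beside 22.0% and 17.8% of all tested genes. Mmp13, a collagenase, went from 0.179 ± 0.127 CPM (SD, n = 5) to 5.51 ± 3.11 (n = 7), a log2 fold change of 4.88 (edgeR adjusted p = 4.2e-05). Plau, which encodes urokinase, rose by 2.70 (edgeR adjusted p = 0.00156) and Timp1, an inhibitor of collagenases, by 2.37 (edgeR adjusted p = 0.0103). All AF livers were above all PF livers for Mmp13 and Plau. The count was 7 without AF replicate 1, 6 without PF replicates 1 and 2, and 7 to 10 when single livers were left out. These genes are also transcribed in macrophages and stellate cells, whose markers rose in the same livers, and the part of AP-1 in their levels was not tested.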

How the data were processed

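Whole liver RNA from 5 PF and 7 AF mice was sequenced. Per the labels and methods, mRNA was selected with oligo(dT), libraries were made with a stranded kit, reads were checked with FastQC 0.10.1, aligned to mm10 with TopHat2 2.0.13 and counted with HTSeq 0.10.0. The annotation and strand setting are not given in the sources used here. The authors deposited raw counts per gene, without normalization. IDs were named with GENCODE M21 (54165 of 54232).

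Counts were scaled with TMM, filtered with filterByExpr by group and tested with edgeR 4.0.16 (R 4.3.3; quasi-likelihood, no covariate, Benjamini-Hochberg adjustment over 14168 genes, threshold 0.05). The Cuffdiff2 test of the methods needs alignments and was not run. SEs were derived from the F statistic. Single members were also compared on mean log2(CPM + 0.1) with an exact two-sided permutation test over all 792 splits. Alternatives were DESeq2 1.42.0, limma 3.58.1, other scalings and filters, a replicate block and each liver left out. Steps were tested on simulated data.

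The named genes are the 10 members and, from the lists of partners, immediate early genes, promoter factors and AP-1 targets, up to 3 of the largest called changes in each direction. Marker lists are given by counts, and the markers named were chosen after their values had been seen. Members and lists were chosen with earlier results of these data known. 1 gene was left out of a list and is not reported here. Leaving out PF replicates 1 and 2, or these and AF replicate 1, was added after the values had been seen. Each library comes from another mouse, and the 31 pairs of libraries within groups differed by at least 21.2 times counting noise. The limit of 3 counts for a count of 0 (95% confidence) covers counting error only, since reads carry no molecular identifiers.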

Additional observations from a re-analysis of the deposited data

Results flagged for a closer look

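For each of the 10 members the highest and lowest liver of each group were compared with the rest of the group by Dixon's test at 95%. Of 19 groups with reads, 9 had such a liver. About 1 in 20 is flagged by chance if values are normally distributed. The test was run on CPM without logarithm, for which that rate need not hold, so the number of flags is a description only. In 7 of them the liver was AF replicate 1, which stood above the other AF livers for Fosl1 (0.674 CPM), Fosl2 (43.7 CPM), Jun (46.2 CPM), Jund (20.5 CPM), Egr1 (100.7 CPM), Ier2 (8.19 CPM) and Ier3 (12.3 CPM). The other 2 were Fosb in PF replicate 1 (2.31 CPM) and Fosb in AF replicate 2 (1.08 CPM). The same liver is counted in each of the 7, so they are not independent.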

How the results depend on the processing

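The number of genes called, 5635, ranged from 3233 (without AF replicate 1 and PF replicates 1 and 2) to 7513 over 25 alternatives. On library totals 6458 genes were higher and 938 lower. Ier3 was higher with an edgeR, limma or DESeq2 adjusted p under 0.05 in 24 of 25 alternatives (0.000708 to 0.0607). Members called higher were 2 on library totals (Jund and Ier3), 3 with voom quality weights (Jund, Egr1 and Ier3), 2 with a filter at 1 count in any library (Ier3 and Fosl1, which had no PF reads and passed that filter through the AF livers alone) and 2 without AF replicate 1 and PF replicates 1 and 2 (Egr1 and Ier3). Members called lower were 0 on library totals, with upper-quartile scaling, with limma-voom with or without quality weights, with the replicate block and without PF replicates 1 and 2, with or without AF replicate 1, and 0 to 1 when single livers were left out. The adjusted p of Fos ranged from 0.0194 to 0.775 and its call was lost in 15 of 25, also without PF replicate 5 (-1.75, adjusted p = 0.0530), with upper-quartile scaling (-1.57, 0.0515) and without any of AF replicates 3 to 7 (-1.48 to -1.63, 0.0642 to 0.0759), where its fold change stayed near the -1.63 of all livers. The sign of Jun turned on library totals (0.43, and 0.33 in the permutation test), with upper-quartile scaling (0.0443), limma-voom (0.00629, and 0.21 with quality weights), the replicate block (0.0923), without PF replicates 1 and 2 (0.54) and without these and AF replicate 1 (0.24). With single livers left out Jun ranged from -0.32 to 0.34 (permutation -0.22 to 0.24). That of Junb turned without PF replicates 1 and 2 (0.58, and 0.39 without AF replicate 1 as well), in the permutation on library totals (0.0670) and without PF replicate 2 (single livers left out gave -0.651 to 0.0400), and that of Fosb without PF replicate 1 (single livers left out gave -1.36 to 0.0268) and without PF replicates 1 and 2 (0.28). The cause was not tested. Deviations of livers with the same replicate number correlated by -0.0760 to 0.115, and 1 of 5 PF livers was nearest to its own number. No pairing by number was seen, but so few livers cannot exclude one. The replicate block, with 6335 genes called and Fos at -1.08 (edgeR adjusted p = 0.0865), is given only here. Correction for length and GC content gave the same calls and moved Fosl2 to 0.08, Egr1 to 0.31, Ier2 to 0.15 and Junb to -0.76. Depth limits Fosl1 (0 to 26 reads per liver) and Fosb.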
